A study of Mus musculus with 10 samples.

Results

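The 10 genes described here encode the cytokines of the IL-1 family that myeloid cells are best known for, the proteins that hold those cytokines in check, and parts of the inflammasome that activates them. They were taken by gene symbol and make up 10 of the 45706 genes of the deposited table. Il1a and Il1b encode the agonists, Il1rn the receptor antagonist, Il1r1 the signalling receptor, Il1r2 the decoy receptor, Il18 and Il18bp a cytokine and its soluble inhibitor, and Nlrp3, Mefv and Casp1 a pair of inflammasome sensors and the caspase. Their RNA levels were compared in spleen T cells and in spleen cDC2s, a subset of conventional dendritic cells, from Cd47ΔT and Cd47f/f mice. There were 2 Cd47ΔT and 2 Cd47f/f T cell libraries, and 3 Cd47ΔT and 3 Cd47f/f cDC2 libraries. Cd47f/f mice carry floxed alleles of Cd47, which encodes a surface protein bound by the inhibitory receptor SIRPα on myeloid cells. In Cd47ΔT mice the gene is, by the name, deleted in T cells, and the comparisons ask how expression in those cells and in cDC2s goes with it. In the sources used here, neither the Cre driver and deleted exons nor the age of the mice and the isolation of the cells is stated.

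As background, IL-1β and IL-18 are made as inactive precursors. A sensor such as NLRP3 or pyrin, the product of Mefv, assembles with the adaptor ASC and caspase-1, which cleaves the precursors and the pore-forming protein gasdermin D. IL-1α and IL-1β signal through IL1R1 and its partner IL1RAP to MyD88 and NF-κB, whereas IL1R2 binds the same ligands but lacks the signalling domain. In dendritic cells Il1b and Nlrp3 transcripts are known to be raised by microbial and cytokine signals, and in mouse T cells Il1r2 is known as a gene of activated regulatory T cells. RNA levels do not show whether a precursor was cleaved or released.

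Levels are given in TPM, a length-corrected share of each library's transcripts, so levels of different genes can be set side by side within a library. The number of genes at 1 TPM or more was 11514 to 12594 per T cell library and 11852 to 12146 per cDC2 library. T cell libraries were made with a TruSeq kit and cDC2 libraries with a SMART-seq kit, so cell type and kit cannot be told apart in levels. Cd47 averaged 46.0 ± 7.99 TPM in Cd47ΔT T cells and 185 ± 67.1 TPM in Cd47f/f T cells (SD, n = 2 each). Cd47 fell by 1.95 ± 0.26 on the log2 scale (SE, limma adjusted p = 0.0112), and the call was lost only with no filter on low values (0.0872). In cDC2s Cd47 averaged 148 ± 12.1 TPM in Cd47ΔT and 149 ± 11.5 TPM in Cd47f/f mice (SD, n = 3 each). In T cell libraries the summed level of 8 T cell markers was 4168 to 4588 TPM in Cd47ΔT and 4482 to 4562 TPM in Cd47f/f mice, with 4 of the 8 (Trac, Cd247, Cd5 and Cd28) lower and 1 higher without overlap. Over all genes tested in T cells, 11.9% were lower and 37% higher without overlap. In cDC2 libraries the same sum was 19.1 to 23.1 TPM in Cd47ΔT and 14.95 to 23.4 TPM in Cd47f/f mice. Most of it was Cd5, at 11.7 to 21.8 TPM in Cd47ΔT and 14.5 to 19.6 TPM in Cd47f/f cDC2s. There, 10 cDC2 markers summed to 22540 to 23204 TPM in Cd47ΔT and 24322 to 31396 TPM in Cd47f/f mice. Most of that sum was Cd74, at 13034 to 13581 TPM in Cd47ΔT and 14216 to 18476 TPM in Cd47f/f mice. One cDC2 library, Cd47f/f replicate 3, stood apart, with correlations of 0.929 to 0.937 with the other cDC2 libraries, so cDC2 fold changes are also given without it. The labels do not say that replicates were separate mice, so p-values measure the spread between libraries, which may be technical.

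In cDC2s the pyrin gene Mefv fell in Cd47ΔT mice and was the only 1 of these genes to pass the test. Il1b, Nlrp3 and Il1rn were below the Cd47f/f libraries in every Cd47ΔT library but did not pass it. Of the 8 genes of the 10 that could be tested in cDC2s, 1 was called lower and none higher at an adjusted p under 0.05, where 0.381% of all 12058 genes tested were called lower and 0.63% in either direction. Over all genes 30 were called higher and 46 lower in cDC2s, and 40 and 35 after median-of-ratios or 37 and 37 after quantile scaling. Without overlap between genotypes, 4 of the 10 were lower, where 13.5% of all genes tested were, and none of the 10 was higher without overlap, where 6.38% of all genes were. In whole populations, fewer cells of a type and less RNA per cell cannot be told apart.

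Il1b was the most abundant of the 10 in cDC2s of both genotypes. It had 128, 127 and 221 TPM in Cd47ΔT cDC2s, against 287, 307 and 869.6 TPM in Cd47f/f cDC2s. Every Cd47ΔT library was below every Cd47f/f library, and the highest value belonged to the Cd47f/f library that stood apart. The means were 159 ± 53.8 TPM in Cd47ΔT and 488 ± 331 TPM in Cd47f/f cDC2s (SD, n = 3 each). The log2 fold change of TPM + 1 was -1.47 ± 0.42 (SE), which missed the threshold (limma adjusted p = 0.190). Without Cd47f/f replicate 3 it was -0.95 ± 0.24 (SE), also short of the threshold (limma adjusted p = 0.208). By rank Il1b was the gene number 849, 906 and 513 of the table in Cd47ΔT cDC2 libraries and number 384, 371 and 150 in Cd47f/f cDC2 libraries. The other agonist, Il1a, was at or near 0, at no more than 0.17 TPM in Cd47ΔT and 0.07 TPM in Cd47f/f cDC2s, and was not tested.

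Mefv encodes pyrin, an inflammasome sensor. It had 38.1, 39.9 and 37.4 TPM in Cd47ΔT cDC2s, against 91.1, 78.5 and 76.5 TPM in Cd47f/f cDC2s. The libraries of a genotype lay close together and the genotypes were well apart. The means were 38.5 ± 1.27 TPM in Cd47ΔT and 82.0 ± 7.91 TPM in Cd47f/f cDC2s (SD, n = 3 each), a ratio of 0.469. On the log2 scale the change was -1.07 ± 0.11 (SE, limma adjusted p = 0.0163). The direction and size held in all 16 alternatives, between -1.12 and -0.99, but the adjusted p lay between 0.0135 and 0.0867. The call was lost in 7 of them, among these without a variance trend (0.0687) and without Cd47f/f replicate 1 (0.0665) or 2 (0.0569). It was also lost without Cd47ΔT replicate 1 (0.0740), 2 (0.0615) or 3 (0.0867), and it held without Cd47f/f replicate 3 (limma adjusted p = 0.0445).

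Nlrp3, the sensor that answers a wide range of cell stresses, had 28.6, 34.0 and 33.6 TPM in Cd47ΔT cDC2s, against 52.8, 41.2 and 58.6 TPM in Cd47f/f cDC2s. The genotypes did not overlap. The log2 fold change was -0.64 ± 0.16 (SE, limma adjusted p = 0.134), and -0.53 ± 0.16 without Cd47f/f replicate 3 (SE, limma adjusted p = 0.279). Casp1, the caspase of these complexes, had 23.3, 31.1 and 27.4 TPM in Cd47ΔT cDC2s, against 28.2, 34.7 and 32.2 TPM in Cd47f/f cDC2s. Its ranges overlapped, and the log2 fold change was -0.22 ± 0.15 (SE, limma adjusted p = 0.598). The smaller difference for Casp1 than for Mefv was not tested as a difference between genes.

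Il1rn, the antagonist that occupies IL1R1 without signalling, had 8.90, 11.4 and 7.63 TPM in Cd47ΔT cDC2s, against 15.9, 11.8 and 12.4 TPM in Cd47f/f cDC2s. The highest Cd47ΔT and the lowest Cd47f/f library nearly touched. Its log2 fold change was -0.48 ± 0.21 (SE, limma adjusted p = 0.375). The decoy receptor gene Il1r2 had 22.3, 14.2 and 16.5 TPM in Cd47ΔT cDC2s, against 19.5, 26.1 and 31.1 TPM in Cd47f/f cDC2s. These ranges overlapped (log2 fold change -0.51 ± 0.22, SE, limma adjusted p = 0.387). An unnamed gene model on the same strand lies within Il1r2 and reached 51.9 TPM in 1 library, so reads may have been split between them. The signalling receptor gene Il1r1 stayed at 0.18 to 0.27 TPM in Cd47ΔT and 0 to 0.24 TPM in Cd47f/f cDC2s and was not tested.

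The IL-18 arm varied more among replicates of a genotype than between genotypes. Il18 had 7.31, 17.3 and 4.4 TPM in Cd47ΔT cDC2s, against 13.1, 3.85 and 23.9 TPM in Cd47f/f cDC2s. Both genotypes spanned a wide range. Its log2 fold change was -0.35 ± 0.64 (SE, limma adjusted p = 0.858), and turned to 0.18 without Cd47f/f replicate 3 and to 0.046 without Cd47ΔT replicate 3. Il18bp, which binds and blocks IL-18, had 3.14, 2.38 and 3.02 TPM in Cd47ΔT cDC2s, against 4.18, 1.15 and 1.03 TPM in Cd47f/f cDC2s. Its log2 fold change was 0.44 ± 0.40 (SE, limma adjusted p = 0.695), and 0.88 ± 0.31 without Cd47f/f replicate 1 (SE, limma adjusted p = 0.379). Il18bp lies within Numa1 on the opposite strand, which reached 125 TPM, and whether counting used strand is not known here, so its values are uncertain. Without Cd47f/f replicate 3 the log2 fold change was 0.20 for Il18bp, -0.53 for Il1rn, -0.36 for Il1r2 and -0.20 for Casp1, and none was called.

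**Figure D1:**
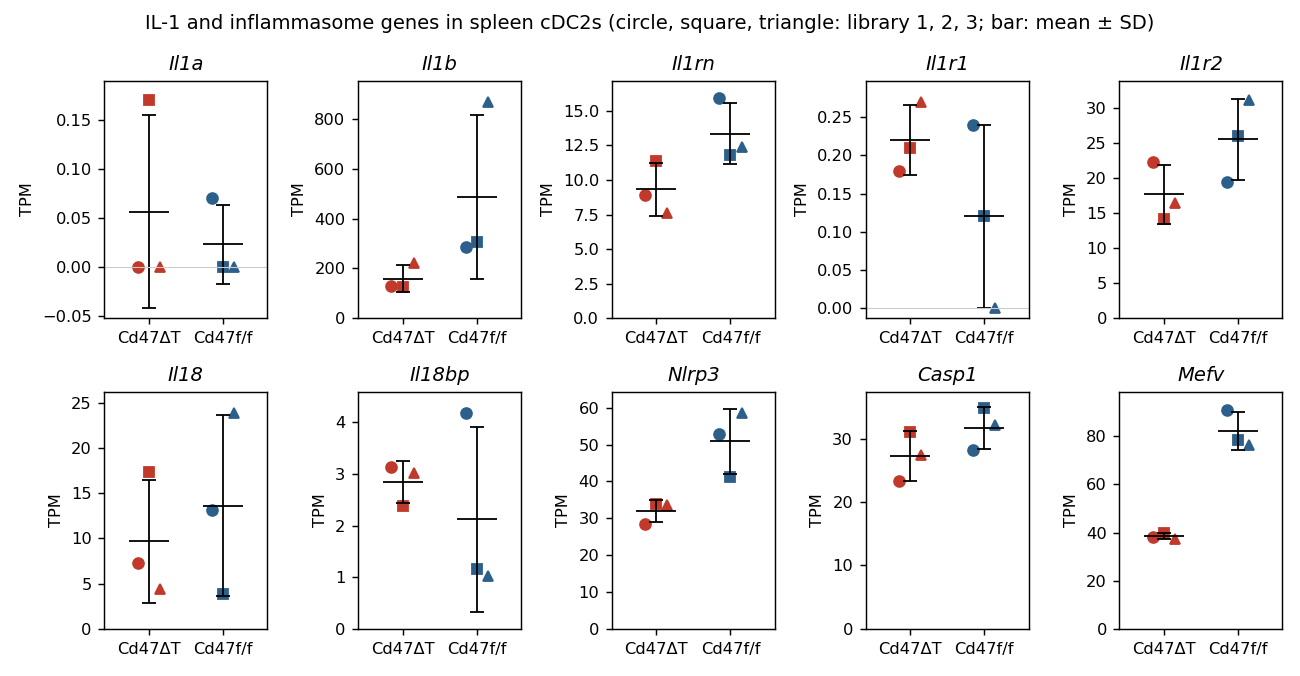
TPM of the 10 genes in each cDC2 library, with Cd47ΔT on the left and Cd47f/f on the right of every panel. Symbols are libraries and bars the mean ± SD (n = 3 each). The Mefv, Nlrp3 and Il1b libraries do not overlap between genotypes, while those of Casp1 and Il18 do.

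The bases upstream of the start site are shown for the genes with the widest separation in cDC2s, Il1b, Mefv and Nlrp3, and for Casp1, which overlapped between genotypes there, so that what their promoters share can be seen. Each is 250 bases long, ends just before the RefSeq start site (GRCm38.p6) and is written on the gene's own strand. Il1b lies at chr2:129371140-129371389 on the minus strand and Mefv at chr16:3718125-3718374 on the minus strand. Nlrp3 lies at chr11:59541319-59541568 on the plus strand and Casp1 at chr9:5298267-5298516 on the plus strand. Capitals mark matches, on either strand, to an NF-κB-like motif (GGG, any 5 bases, then CC), an AP-1-like motif TGANTCA, an ETS-like motif GGAAGT, a C/EBP-like motif TTGCNNAA, an interferon response-like motif (GAAA, any 2 bases, then GAAA) and the TATA box TATAAA.
Il1b promoter: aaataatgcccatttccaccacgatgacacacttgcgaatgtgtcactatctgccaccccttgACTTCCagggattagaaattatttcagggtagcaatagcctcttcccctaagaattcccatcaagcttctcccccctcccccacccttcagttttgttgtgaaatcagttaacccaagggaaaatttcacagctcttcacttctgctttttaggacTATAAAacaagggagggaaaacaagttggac
Mefv promoter: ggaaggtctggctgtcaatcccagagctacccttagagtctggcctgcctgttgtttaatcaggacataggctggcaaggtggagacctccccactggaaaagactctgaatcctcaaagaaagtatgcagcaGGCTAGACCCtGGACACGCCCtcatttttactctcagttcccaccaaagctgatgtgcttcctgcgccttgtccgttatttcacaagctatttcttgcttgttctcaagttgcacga
Nlrp3 promoter: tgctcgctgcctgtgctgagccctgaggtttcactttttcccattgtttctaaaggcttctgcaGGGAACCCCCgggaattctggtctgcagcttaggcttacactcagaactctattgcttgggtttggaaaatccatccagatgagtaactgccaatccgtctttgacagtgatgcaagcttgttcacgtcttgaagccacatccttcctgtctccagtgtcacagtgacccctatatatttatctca
Casp1 promoter: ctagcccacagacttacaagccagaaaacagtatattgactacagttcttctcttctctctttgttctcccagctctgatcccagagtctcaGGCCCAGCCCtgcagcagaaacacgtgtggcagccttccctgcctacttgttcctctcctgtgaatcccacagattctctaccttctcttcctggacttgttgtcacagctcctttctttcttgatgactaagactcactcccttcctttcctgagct
The Il1b window held a TATA box that began 31 bases before the start site and an ETS-like match, ACTTCC on this strand, 187 bases before it. The Mefv window held NF-κB-like matches at 117 and 106 bases before the start site, the Nlrp3 window held 1 at 186 and the Casp1 window 1 at 158. The RefSeq start of Mefv lies 27 bases from the annotated end of the gene in GENCODE. The Nlrp3 stretch matches the motif on both strands. None of the motifs was shared by all 4 windows. Of 32851 RefSeq windows of this length, 45.8% held the NF-κB-like motif, 19.7% the ETS-like motif, 12.4% the TATA box, 9.56% the C/EBP-like motif, 6.75% the AP-1-like motif and 2.98% the interferon response-like motif. A match of letters is a description and not a binding site, and Casp1 carries the same motif as Mefv and Nlrp3.

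In T cells the same genes lay higher in Cd47ΔT than in Cd47f/f mice. Il1r2, Casp1 and Il18 rose and passed the test, with Il1r2 showing the widest separation. Of the 10 genes, 6 could be tested and 3 were called higher, where 8.5% of all 12453 genes tested were called higher, 0.875% lower and 9.37% in either direction. All 10 were higher without overlap between genotypes, where 37% of all genes tested were, a share over genes past the filter, which 4 of the 10 did not pass. Il1r1 and Il1r2 had no Cd47f/f library at 1 TPM, and Il1b and Il18 had 1, so all 4 entered the test through the Cd47ΔT libraries, in which they were high. Of the 3 called genes, Casp1 alone passed the filter in both genotypes, and nothing is read from the count of calls. The split of calls over all genes moved with scaling, with 1058 higher and 109 lower in T cells, 946 and 264 after median-of-ratios scaling and 672 and 325 after quantile scaling.

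Il1r2 (chr1:40074079-40125231, plus strand, GRCm38) had 18.3 and 13.4 TPM in Cd47ΔT T cells, against 0.59 and 0.49 TPM in Cd47f/f T cells. The means were 15.9 ± 3.51 TPM in Cd47ΔT and 0.540 ± 0.0707 TPM in Cd47f/f T cells (SD, n = 2 each), a ratio of 29.4. The log2 fold change of TPM + 1, which understates changes of low genes, was 3.44 ± 0.24 (SE, limma adjusted p = 0.00217). The call held in 13 of 14 alternatives and was lost with no filter on low values (limma adjusted p = 0.0608). The level in Cd47ΔT T cells lay near that in the cDC2s of the same genotype, 17.7 ± 4.16 TPM (SD, n = 3), though the libraries were made with different kits. The unnamed gene model within Il1r2 reached 51.9 TPM in 1 cDC2 library but at most 0.05 TPM in T cells. Splitting of reads may thus differ between the cell types. Il1r1 had 1.25 and 1.68 TPM in Cd47ΔT T cells, against 0.24 and 0.86 TPM in Cd47f/f T cells. Its log2 fold change was 0.69 ± 0.28 (SE, limma adjusted p = 0.230).

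Casp1 had 26.9 and 20.4 TPM in Cd47ΔT T cells, against 8.18 and 7.39 TPM in Cd47f/f T cells. It was the most abundant of the 10 genes in T cells of both genotypes. Its change was 1.48 ± 0.20 on the log2 scale (SE, limma adjusted p = 0.0118), and the call was lost with no filter (limma adjusted p = 0.0779). It was also lost without Cd47ΔT replicate 1, where the change was 1.29. The sensor genes were far lower. Nlrp3 had 0.96 and 1.01 TPM in Cd47ΔT T cells, against 0.10 and 0.09 TPM in Cd47f/f T cells. Mefv had 0.79 and 1.41 TPM in Cd47ΔT T cells, against 0.04 and 0.15 TPM in Cd47f/f T cells. Neither reached 1 TPM in 2 libraries, so neither was tested.

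Il18 had 5.52 and 3.81 TPM in Cd47ΔT T cells, against 0.23 and 1.11 TPM in Cd47f/f T cells. It rose by 1.80 ± 0.33 on the log2 scale (SE, limma adjusted p = 0.0258). Bco2, which overlaps it on the opposite strand, had 2.36 to 2.67 TPM in Cd47ΔT and 0.13 to 0.26 TPM in Cd47f/f T cells, and without the strand setting the reads of this pair cannot be told apart. The Il18 call held in 8 of 13 alternatives. It was lost with a pseudocount of 0.1 (0.0554), no filter (0.116), quantile scaling (0.0695) and 1 fit of all 10 libraries (limma adjusted p = 0.215). It was also lost without Cd47f/f replicate 1, where the log2 fold change was 1.41. Il18bp had 4.93 and 5.39 TPM in Cd47ΔT T cells, against 1.47 and 2.46 TPM in Cd47f/f T cells. Its log2 fold change of 1.07 ± 0.25 (SE) missed the threshold (limma adjusted p = 0.0511) and passed it in 5 of 13 alternatives, among them median-of-ratios scaling (0.0424). Without Cd47f/f replicate 1 it was 0.83, and without Cd47f/f replicate 2 it was 1.32.

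Il1b had 5.87 and 9.35 TPM in Cd47ΔT T cells, against 2.68 and 0.13 TPM in Cd47f/f T cells. The Cd47f/f libraries differed widely from each other. The log2 fold change was 2.05 ± 0.55 (SE, limma adjusted p = 0.0765), and it passed the threshold with a pseudocount of 5 (limma adjusted p = 0.0485). It was 2.90 without Cd47f/f replicate 1, 1.20 without Cd47f/f replicate 2, 2.34 without Cd47ΔT replicate 1 and 1.75 without Cd47ΔT replicate 2. Each of these fits leaves 1 library in a group, so only the size is given. Il1a had 0.77 and 0.84 TPM in Cd47ΔT T cells, against 0.04 and 0.21 TPM in Cd47f/f T cells. Il1rn had 0.52 and 0.57 TPM in Cd47ΔT T cells, against 0 and 0.06 TPM in Cd47f/f T cells. Both stayed under 1 TPM in every T cell library and were not tested.

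**Figure D2:**
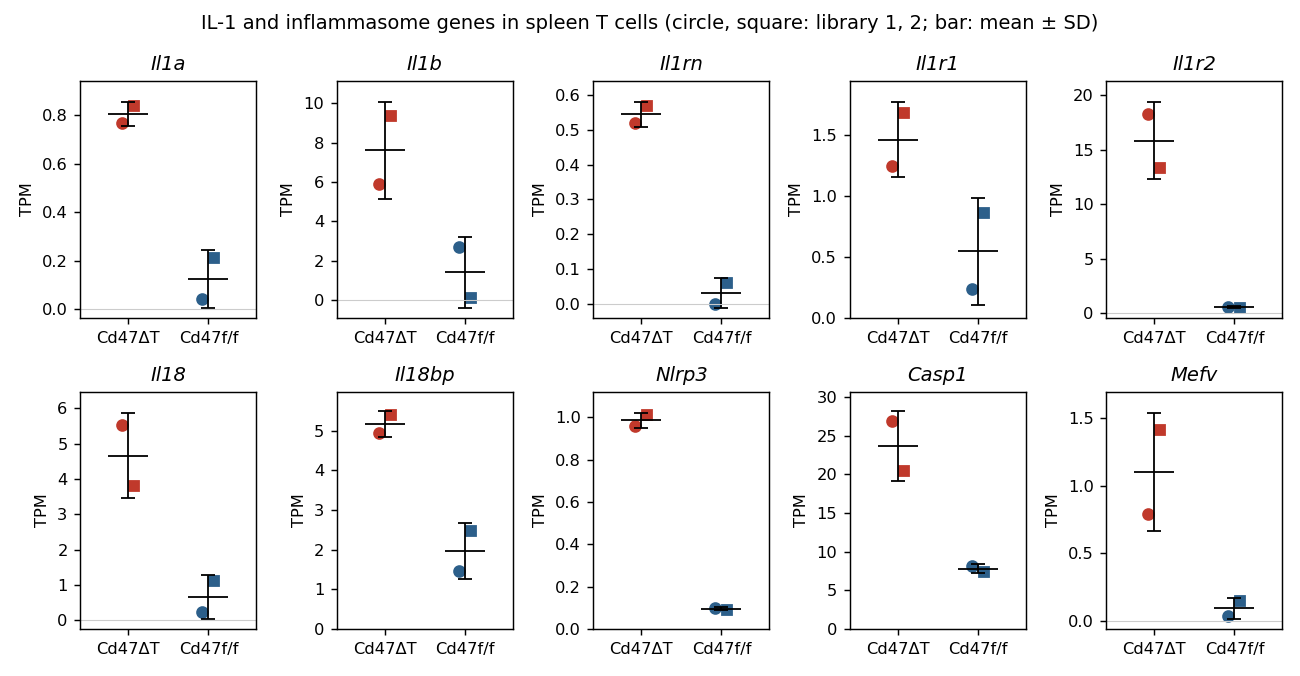
TPM of the 10 genes in each T cell library, with Cd47ΔT on the left and Cd47f/f on the right of every panel. Symbols are libraries and bars the mean ± SD (n = 2 each). All 10 genes lie higher in both Cd47ΔT libraries, and Il1r2 is at 13.4 and 18.3 TPM there, against 0.49 and 0.59 TPM in Cd47f/f.

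Most markers of other cells were also higher in the Cd47ΔT T cell libraries. Over all 12453 genes tested there, 37% were higher and 11.9% lower in Cd47ΔT without overlap, a share over genes past the filter. All 10 cDC2 markers were higher in both Cd47ΔT libraries, and their sum was 315 and 543 TPM in Cd47ΔT T cells, against 38.2 and 53.2 TPM in Cd47f/f T cells. Most of that sum was Cd74, at 211 and 362 TPM in Cd47ΔT and 22.2 and 32.6 TPM in Cd47f/f T cells. H2-Ab1 was next, at 58.35 and 113 TPM in Cd47ΔT and 6.03 and 7.48 TPM in Cd47f/f T cells. Of 10 neutrophil markers 8 were higher without overlap, and their sum was 28.0 and 92.5 TPM in Cd47ΔT T cells, against 2.14 and 5.56 TPM in Cd47f/f T cells, with the defining marker Ly6g at 0 in all 4 libraries. All 8 monocyte markers were higher, with a sum of 2247 to 2476 TPM in Cd47ΔT and 790.4 to 967 TPM in Cd47f/f T cells. Most of that sum was Ly6c2, at 1707 and 1738 TPM in Cd47ΔT and 595 and 738 TPM in Cd47f/f T cells. All 10 markers of red pulp macrophages were higher, with a sum of 188 to 294 TPM in Cd47ΔT and 25.9 to 32.8 TPM in Cd47f/f T cells. The part of these cells in the T cell results was not tested. All 8 regulatory T cell markers were higher too, and their sum was 546 and 397 TPM in Cd47ΔT T cells, against 139 and 135 TPM in Cd47f/f T cells. Sums of 8 B cell markers (1119 to 1562 TPM in Cd47ΔT, 629.7 to 694 TPM in Cd47f/f) and of 6 NK cell markers (157 to 206 TPM in Cd47ΔT, 69.6 to 96.6 TPM in Cd47f/f) were also higher, with every marker apart. Most of the B cell sum was Ighm, at 1067 and 1443 TPM in Cd47ΔT and 615 and 678 TPM in Cd47f/f T cells. The 6 cDC1 markers (33.0 to 51.4 TPM in Cd47ΔT, 8.65 to 11.7 TPM in Cd47f/f) and 6 erythroid markers (77.4 to 158 TPM in Cd47ΔT, 21.4 to 33.0 TPM in Cd47f/f) were all higher, and of 6 markers of plasmacytoid dendritic cells 4 were higher and 2 lower.

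**Figure D3:**
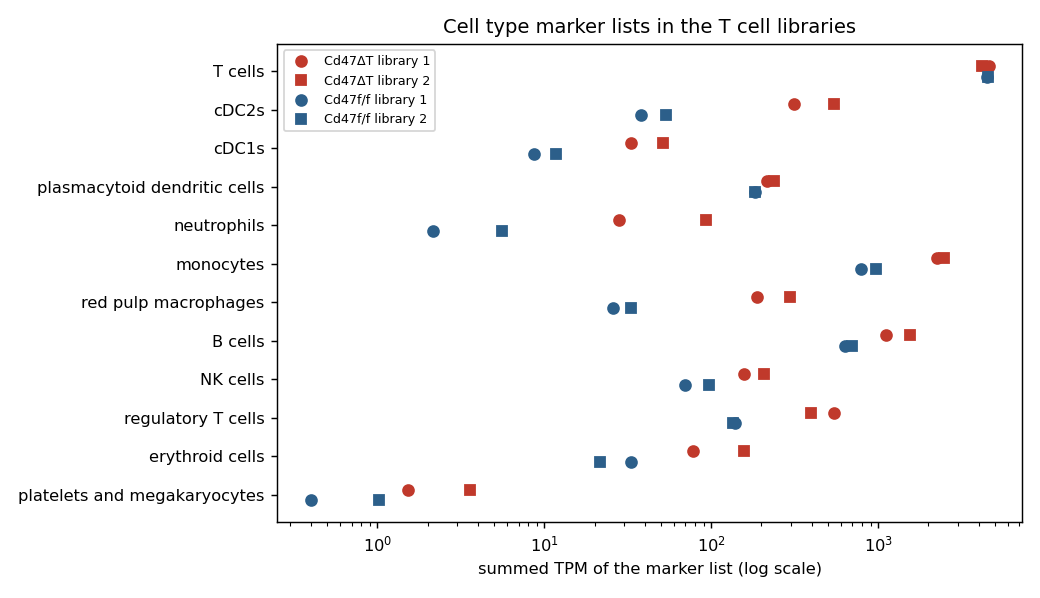
Summed TPM of each marker list in each T cell library on a log axis, with Cd47ΔT given before Cd47f/f. The T cell sum lies between 4168 and 4588 TPM in all 4 libraries, though 4 of its 8 markers are lower without overlap in Cd47ΔT, while the cDC2, neutrophil, macrophage and regulatory T cell sums are higher in both Cd47ΔT libraries.

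In the cDC2 libraries the sums of neutrophil, monocyte and macrophage markers overlapped between genotypes. The neutrophil markers S100a8, S100a9, Retnlg, Ly6g, Ngp and Camp were at 0 in all 6 libraries, and all 10 neutrophil markers summed to 8.73 to 8.97 TPM in Cd47ΔT and 5.71 to 10.6 TPM in Cd47f/f cDC2s. Monocyte markers summed to 385 to 585 TPM in Cd47ΔT and 481 to 562 TPM in Cd47f/f cDC2s, and macrophage markers to 158 to 262 TPM in Cd47ΔT and 208 to 339 TPM in Cd47f/f cDC2s. Where 13.5% of all genes tested were lower without overlap in Cd47ΔT cDC2s, 6 of the 10 cDC2 markers were. Their part in the lower Il1b, Mefv and Nlrp3 levels was not tested.

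The genotype effect differed between the cell types for 3 of the 5 genes that could be tested in both, all 3 being higher in T cells relative to cDC2s, where 5.4% of 10650 genes tested were called in that direction and 5.7% in either. Of these 3, Il1r2 and Il1b passed the T cell filter through the Cd47ΔT libraries, in which they were high. Nothing is therefore read from this count. Over all genes 575 calls were higher in T cells and 32 lower, and 417 and 77 after median-of-ratios or 333 and 86 after quantile scaling. The difference, the log2 effect in T cells minus that in cDC2s, was 3.94 ± 0.36 for Il1r2 (SE, limma interaction, adjusted p = 0.000125). For Il1b it was 3.51 ± 0.74 (SE, limma interaction, adjusted p = 0.0155). For Casp1 it was 1.69 ± 0.27 (SE, limma interaction, adjusted p = 0.00303). Il1r2 and Casp1 kept the call in all 19 alternatives. Il1b lost it with no filter (0.0555), with quantile scaling (0.0768), and without T cell Cd47f/f replicate 2 (0.0730) or T cell Cd47ΔT replicate 2 (limma adjusted p = 0.0806). For Il18 the difference was 2.15 ± 0.89 (SE, limma adjusted p = 0.249) and for Il18bp 0.64 ± 0.55 (SE, limma adjusted p = 0.693). The Mefv and Nlrp3 differences could be tested only with no filter on low values, where they were 1.99 ± 0.26 (SE, limma adjusted p = 0.00483) and 1.498 ± 0.28 (SE, limma adjusted p = 0.0223).

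**Figure D4:**
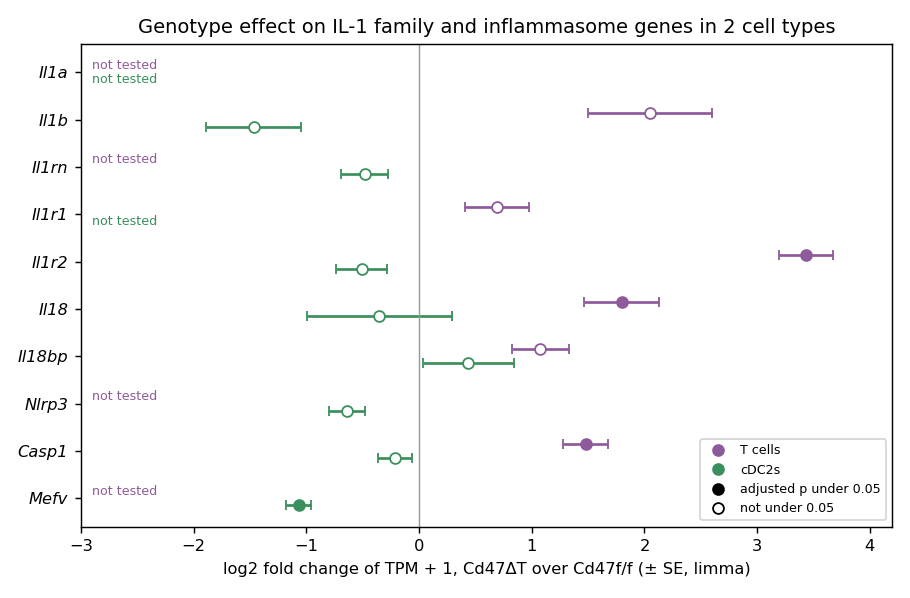
Log2 fold change of TPM + 1, Cd47ΔT over Cd47f/f, of each gene in T cells and in cDC2s, with the SE from limma. Filled points passed an adjusted p of 0.05, and 'not tested' marks genes too low for the test. The T cell values lie to the right of 0 and the cDC2 values mostly to the left, except Il18bp at 0.44.

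The order of the genes by level was the same in cDC2s of both genotypes. In both, Il1b led, followed by Mefv, Nlrp3, Casp1, Il1r2, Il18, Il1rn, Il18bp, Il1r1 and Il1a. In Cd47ΔT cDC2s the ranges of neighbours overlapped for Nlrp3 and Casp1, for Il1r2 and Il18 and for Il18 and Il1rn. In Cd47f/f cDC2s they overlapped for Casp1 and Il1r2, Il1r2 and Il18, Il18 and Il1rn, and Il1r1 and Il1a. In Cd47ΔT T cells the order was Casp1, Il1r2, Il1b, Il18bp, Il18, Il1r1, Mefv, Nlrp3, Il1a and Il1rn, and the ranges overlapped for Il18bp and Il18, Il1r1 and Mefv, and Mefv and Nlrp3. In Cd47f/f T cells Casp1 led, and all the rest averaged under 2 TPM, and Il1r2, at place 2 in Cd47ΔT T cells, was at place 6.

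Ratios of an inhibitor to its partner were taken per library on TPM with 0.1 added to each sum. The ratio of decoy to signalling receptor, Il1r2 over Il1r1, was 13.7 and 7.57 in Cd47ΔT T cells, against 2.03 and 0.615 in Cd47f/f T cells. The ratios did not overlap, but 2 libraries against 2 cannot give a p under 0.333 in an exact permutation test, and this was the p found (two-sided). In cDC2s the same ratio was 79.9, 46.2 and 44.8 in Cd47ΔT mice, against 57.7, 119 and 312 in Cd47f/f mice (exact permutation p = 0.2, two-sided, with 0.1 the smallest possible). It rests on Il1r1 values near 0. The ratio of antagonist to agonists, Il1rn over Il1a plus Il1b, was 0.0703, 0.0903 and 0.0350 in Cd47ΔT cDC2s, against 0.0557, 0.0386 and 0.0144 in Cd47f/f cDC2s (exact permutation p = 0.3). It was 0.0920 and 0.0651 in Cd47ΔT T cells, against 0.0355 and 0.364 in Cd47f/f T cells (exact permutation p = 1), with overlap in both cell types. The ratio of Il18bp over Il18 was 0.895 and 1.4 in Cd47ΔT T cells, against 4.76 and 2.12 in Cd47f/f T cells (exact permutation p = 0.333), without overlap. It rests on low Il18 values in Cd47f/f T cells (0.23 and 1.11 TPM). The log2 difference was -1.50 with 0.1 TPM added to each sum and -0.72 with 1 TPM added. Reads of Il18bp and Il18 may also be mixed with those of Numa1 and Bco2, which overlap them on the opposite strand. In cDC2s the Il18bp over Il18 ratio was 0.437, 0.142 and 0.693 in Cd47ΔT mice, against 0.324, 0.316 and 0.0471 in Cd47f/f mice (exact permutation p = 0.5). Without Cd47f/f replicate 3, the log2 difference in cDC2s, Cd47ΔT minus Cd47f/f, was 0.13 for Il18bp over Il18 (1.054 with it), 0.38 for Il1rn over agonists (0.95 with it) and -0.59 for Il1r2 over Il1r1 (-1.23 with it).

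The wider pathway was read from 5 further lists. Of 6 other ligand genes of the family (Il33, Il36a, Il36b, Il36g, Il36rn and Il1f10), none could be tested in either cell type. Of 8 other receptor genes, 6 were tested in T cells and 1 rose, where 8.5% of all genes tested were called higher. Il18rap, the signalling chain of the IL-18 receptor, had 42.4 and 57.9 TPM in Cd47ΔT T cells, against 12.0 and 23.6 TPM in Cd47f/f T cells (log2 fold change 1.502 ± 0.32, SE, limma adjusted p = 0.0389). The call was lost in 4 of 14 alternatives, among them without Cd47f/f replicate 1 (log2 fold change 1.04) and without Cd47ΔT replicate 2 (1.28). The binding chain of that receptor, Il18r1, had 69.2 and 68.6 TPM in Cd47ΔT T cells, against 29.1 and 57.9 TPM in Cd47f/f T cells (log2 fold change 0.73 ± 0.30, SE, limma adjusted p = 0.230). Il1rl1, the IL-33 receptor, had 8.58 and 5.58 TPM in Cd47ΔT T cells, against 1.30 and 2.83 TPM in Cd47f/f T cells, short of the threshold (log2 fold change 1.42 ± 0.33, SE, limma adjusted p = 0.0503) but past it without Cd47f/f replicate 2 (0.0371) or Cd47ΔT replicate 2 (0.0176). Il1rap, the shared partner chain, had 6.56 and 7.42 TPM in Cd47ΔT T cells, against 4.87 and 7.48 TPM in Cd47f/f T cells, with overlap. In cDC2s 2 of the 8 were tested and none was called, and Il18rap was at 0.11, 1.19 and 0.28 TPM in Cd47ΔT, against 2.24, 1.86 and 1.36 TPM in Cd47f/f cDC2s (log2 fold change -0.94 ± 0.37, SE, limma adjusted p = 0.321).

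Downstream of the receptors, 10 signalling genes (Myd88, the Irak kinases, Traf6 and their partners) were tested in both cell types and none was called in either. Over all genes tested, 9.37% were called in T cells and 0.63% in cDC2s. The median log2 fold change of the 10 was 0.053 in T cells, where the median of all genes tested was 0.10, and -0.21 in cDC2s, where it was -0.073. In cDC2s 9 of the 10 were negative, and 3 were lower without overlap, where 13.5% of all genes tested were. Myd88 had means of 61.1 ± 0.976 TPM in Cd47ΔT and 61.4 ± 8.17 TPM in Cd47f/f T cells (SD, n = 2 each). In cDC2s it averaged 84.1 ± 9.58 TPM in Cd47ΔT and 97.9 ± 9.11 TPM in Cd47f/f mice (SD, n = 3 each).

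Of 19 other inflammasome genes, 13 were tested in T cells, and 4 rose and none fell, where 8.5% of all genes tested were called higher and 0.875% lower. The 13 had a median log2 fold change of 0.54, where that of all genes tested was 0.10. Pycard, which encodes the adaptor ASC, was at 108 TPM in both Cd47ΔT T cell libraries, against 72.2 and 75.7 TPM in Cd47f/f T cells (log2 fold change 0.54 ± 0.11, SE, limma adjusted p = 0.0367). Casp4, the mouse caspase-11 that senses cytosolic lipopolysaccharide, had 21.6 and 14.9 TPM in Cd47ΔT T cells, against 7.12 and 3.65 TPM in Cd47f/f T cells (log2 fold change 1.63 ± 0.32, SE, limma adjusted p = 0.0314). Naip5, a flagellin sensor, averaged 4.36 ± 0.0495 TPM in Cd47ΔT and 0.565 ± 0.0495 TPM in Cd47f/f T cells (SD, n = 2 each, limma adjusted p = 0.00915). Naip6 was called too (log2 fold change 1.20 ± 0.23, SE, limma adjusted p = 0.0297), though the Naip genes are near-identical copies whose reads may have been split. Naip5, Naip6 and Nlrp1b were under 1 TPM in both Cd47f/f libraries and entered the test only through the Cd47ΔT libraries. Nothing is therefore read from the list median in T cells. The Pycard call ended without Cd47ΔT replicate 1 or 2, though its log2 fold change stayed at 0.54 in both fits. The Casp4 call ended without Cd47ΔT replicate 1 (log2 fold change 1.37) or Cd47f/f replicate 2 (1.22). For Naip6 the call ended without Cd47f/f replicate 1 (log2 fold change 1.11) or 2 (1.28). Such fits leave 1 library in a group and take much of their spread from genes of like level. Pycard and Casp4 were also not called under median-of-ratios scaling (0.0880 and 0.0766) or quantile scaling (0.0570 and 0.0926), and Naip6 not under quantile scaling (0.0719). Pycard also lost the call when all 10 libraries were fitted together (0.0547) and with the variance trend off (0.0972), and all 4 genes lost it with no filter (limma adjusted p between 0.0730 and 0.132). Gsdmd, the pore-forming target of the caspases, had means of 41.0 ± 1.39 TPM in Cd47ΔT and 34.4 ± 1.08 TPM in Cd47f/f T cells and was not called (limma adjusted p = 0.389). In cDC2s, where 0.63% of all genes tested were called, 16 of the 19 were tested and none was called. Their median log2 fold change was -0.36, where that of all genes tested was -0.073. Without overlap, 9 genes were lower, where 13.5% of all genes tested were, among them Casp4. It averaged 7.97 ± 1.65 TPM in Cd47ΔT and 13.95 ± 3.14 TPM in Cd47f/f cDC2s (SD, n = 3 each, limma adjusted p = 0.235). The difference between the cell types was called for 4 of 13 genes of this list, all higher in T cells. Over all 10650 genes tested, 5.4% were called in that direction. Of the 4, Naip5 and Naip6 passed the T cell filter only through the Cd47ΔT libraries, so nothing is read from this count. For Casp4 the difference was 2.35 ± 0.42 (SE, limma adjusted p = 0.00565).

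Of 18 genes that IL-1 and Toll-like receptors are known to induce, 12 were tested in each cell type. In T cells 3 rose, all encoding chemokines, where 8.5% of all genes tested were called higher. Ccl3 averaged 6.995 ± 0.247 TPM in Cd47ΔT and 2.04 ± 0.219 TPM in Cd47f/f T cells (SD, n = 2 each, limma adjusted p = 0.0146). Ccl4 averaged 14.1 ± 0.191 TPM in Cd47ΔT and 5.84 ± 1.46 TPM in Cd47f/f T cells (SD, n = 2 each, limma adjusted p = 0.0282). Cxcl3 had 1.34 and 1.02 TPM in Cd47ΔT T cells and was listed at 0 in both Cd47f/f libraries (limma adjusted p = 0.0342), so it entered the test only through the Cd47ΔT libraries. The Ccl4 call was lost without Cd47ΔT replicate 1 or 2 (log2 fold change 1.17 and 1.15, against 1.16 with all libraries). The Cxcl3 call was lost without Cd47f/f replicate 1 or 2, with the log2 fold change at 1.12 in both, as with all libraries. Ccl4 also lost it in 1 fit of all 10 libraries (0.483), Cxcl3 with a pseudocount of 5 (0.0618) and quantile scaling (0.0764), and all 3 with no filter (limma adjusted p between 0.0693 and 0.111). In cDC2s 1 of the 12 fell, where 0.381% of all genes tested were called lower. It was Ccl3, with 3.52, 5.88 and 4.09 TPM in Cd47ΔT cDC2s, against 11.5, 20.5 and 18.6 TPM in Cd47f/f cDC2s. Its log2 fold change was -1.68 ± 0.27 (SE, limma adjusted p = 0.0493), and the call was lost in 14 of 16 alternatives, among them leaving out any of the 6 libraries (adjusted p between 0.0789 and 0.171). The median log2 fold change of the 12 was -0.11 in cDC2s and 0.37 in T cells, where those of all genes tested were -0.073 and 0.10.

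**Figure D5:**
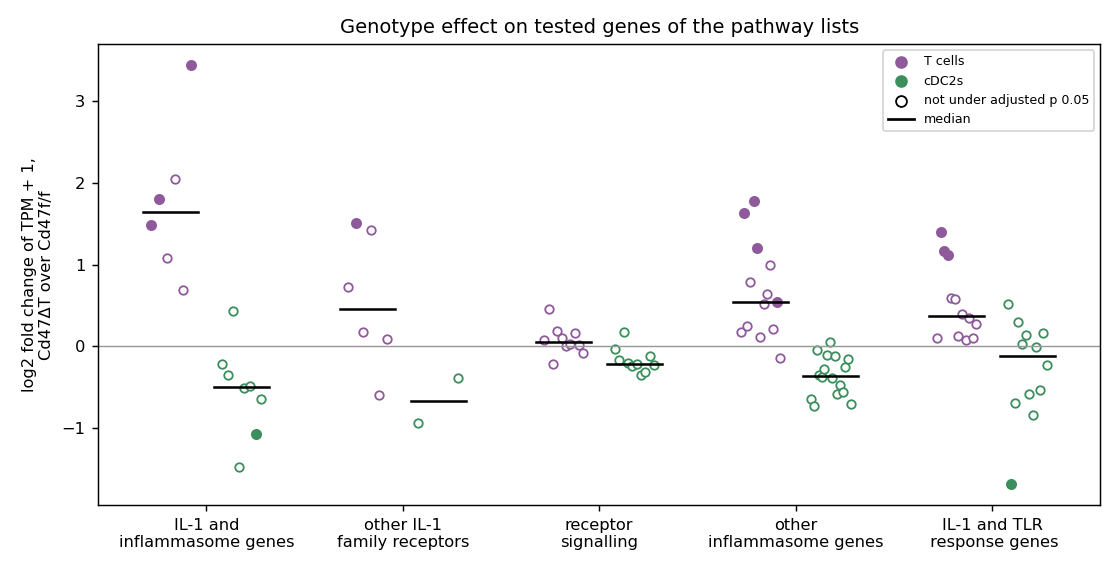
Log2 fold change of TPM + 1, Cd47ΔT over Cd47f/f, of the tested genes of each list in T cells and cDC2s. Each point is a gene, filled where it passed an adjusted p of 0.05, and bars are list medians. Over all genes tested the median is 0.10 in T cells and -0.073 in cDC2s. Other inflammasome genes have a median of 0.54 in T cells and -0.36 in cDC2s, and some of them passed the T cell filter only through Cd47ΔT libraries. Receptor signalling genes have a median of 0.053 in T cells and -0.21 in cDC2s, where 9 of the 10 lie below 0.

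The protein-coding genes most like each of the 10 across libraries were found by Pearson's r of log2(TPM + 1), after removal of each cell type's mean where both cell types were used. The libraries share genotype, so these values are a description. For Il1b over 10 libraries they were Tmem86a (0.925), Rgs2 (0.922) and H2-Oa (0.918). For Il1r2 they were Lrrc40 (0.980), Dnase1l3 (0.979) and Plp2 (0.978), and for Casp1 they were Oas1a (0.980), Lrrc40 (0.976) and Hmgn3 (0.963). Lrrc40 stood near both genes called in T cells and in the difference between cell types. Within the 6 cDC2 libraries, Mefv was closest to Ctnnd2 (0.995), Hipk1 (0.993) and Tifab (0.992), Nlrp3 to Zbtb20 (0.995), Btla (0.993) and Polr1b (0.993), and Il1rn to Patj (0.994), Naip5 (0.993) and Rbm15 (0.991). Il18 was closest to Camk2d (0.949), Il10rb (0.932) and Tdg (0.929), and Il18bp to Aaas (0.955), Vps18 (0.948) and Ntng2 (0.938), over 10 libraries. Over the 4 T cell libraries alone Il1r1 was closest to Mpv17, Ppil2 and Slc1a5, at 1.0 each when rounded.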

How the data were processed

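Spleen T cells (2 Cd47ΔT, 2 Cd47f/f libraries) and cDC2s (3 Cd47ΔT, 3 Cd47f/f) were grouped by the labels. The authors deposited TPM for 45706 genes. STAR, RSEM, DESeq2 and GRCm38 are named, without roles or versions, per the submitters' processing notes. TPM keep no depth, so depth is unknown and no counting interval is given. Per the labels' protocols, T cell RNA came from RNeasy mini and TruSeq stranded mRNA kits, and cDC2 RNA from RNeasy micro and SMART-seq stranded kits.

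Symbols came from GENCODE M21 (45143 identifiers matched). Genes at 1 TPM in at least 2 T cell or 3 cDC2 libraries were tested on log2(deposited TPM + 1) with limma 3.58.1 (lmFit, eBayes with a variance trend, R 4.3.3), two-sided, Benjamini-Hochberg over all genes tested, called under 0.05. Genotype was the only term. An interaction in 1 fit of all 10 libraries compared the effects. Tests were checked on simulated data. Ratios used exact permutation tests (SciPy 1.17.1).

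The genes and lists were chosen with earlier results of these data known. Named were the 10 genes, up to 4 called genes per list and comparison by smallest p, 8 fixed pathway genes, the 3 genes most like each of the 10 (mean of 5 TPM or more) and Cd47. Alternatives were pseudocounts of 0.1 and 5, no filter or 5 TPM, median-of-ratios, quantile and protein-coding scaling, no variance trend, pooling both cell types in 1 fit, blocking on the replicate number and leaving out each library. Where that left a lone T cell library in a group, the spread came from the other libraries of the fit and from genes of like level. In fits of T cells alone much of it came from those genes. Calls kept, lost or gained there do not rest on a gene's own spread alone. Other genes named by a count or marker list were chosen after their values were seen.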

Additional observations from a re-analysis of the deposited data

Results flagged for a closer look

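The genotype effect, Cd47ΔT over Cd47f/f on log2(TPM + 1), differed between T cells and cDC2s for 3 genes that passed the filter in both cell types. In T cells Il1r2 and Il1b passed it through the Cd47ΔT libraries, in which they were high. The difference, T cells minus cDC2s, was 3.94 for Il1r2 (limma interaction, adjusted p = 0.000125), 3.51 for Il1b (0.0155) and 1.69 for Casp1 (0.00303). All 10 genes were higher in both Cd47ΔT T cell libraries, where 37% of all genes tested were higher without overlap. Among the 3 genes named above, Il1b alone was lower in every Cd47ΔT cDC2 library than in every Cd47f/f one.

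Mefv, Nlrp3 and Il1rn were higher in every Cd47ΔT T cell library and lower in every Cd47ΔT cDC2 library, but were too low in T cells for the main test. With no filter on low values the difference was 1.99 for Mefv (limma interaction, adjusted p = 0.00483), 1.498 for Nlrp3 (0.0223) and 1.07 for Il1rn (0.166), so for Il1rn the difference was not called. In the T cell libraries these 3 genes lay at or below 1.41 TPM in Cd47ΔT and 0.15 TPM in Cd47f/f mice, where markers of myeloid cells were also higher in Cd47ΔT, and the part of such cells was not tested.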

How the results depend on the processing

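In T cells 3 of the 10 genes were called, and 5 with a pseudocount of 5, 5 with the replicate block and 0 with no filter (3 to 4 when 1 library was left out). Over all genes, 1167 were called in T cells, against 15 with no filter, 758 with a filter at 5 TPM, 2296 with the block and 725 to 1568 with 1 library left out. In cDC2s 1 of the 10 was called, and 0 without a variance trend, 0 with the block and 0 to 1 with 1 library left out. Over all genes 76 were called in cDC2s, against 6 with no filter, 12 without a trend, 171 in 1 fit of all libraries, 4 with the block and 0 to 14 with 1 library left out. For the difference between cell types 607 genes were called, against 395 with a filter at 5 TPM and 302 to 607 with 1 library left out. Deviations of same-numbered libraries correlated at 0.19 in T cells, where 2 libraries per group force both pairs to the same value. They correlated at -0.044, 0.059 and 0.12 in cDC2s, where 1 of 3 Cd47ΔT libraries correlated best with its own number. The labels give the numbers no meaning, and pairing was taken only where 3 or more pairs all exceed 0.1, so numbers were not used as pairs. With the block, the adjusted p was 0.0730 for Mefv in cDC2s and 8.06e-13 for Il1b in T cells (limma). In T cells the block fit took the spread from genes of like level and not from a gene's own libraries. The Il1b value therefore does not measure the spread of Il1b, and the counts of T cell calls with the block share this limit. T cell counts with 1 library left out share it in part, as much of their spread also came from genes of like level.

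These log2 fold changes, none of them called, turned direction. In T cells Myd88 was -0.000149 with a pseudocount of 5, -0.15 with median-of-ratios, -0.12 with quantile and -0.037 with protein-coding scaling, and -0.13 to 0.13 with 1 library left out. Il1rap was -0.14 with quantile scaling and -0.088 to 0.44 with 1 library left out. In cDC2s Gsdmd was 0.040, 0.046 and 0.027, and Cd47 0.078, 0.073 and 0.065, under those 3 scalings. The Myd88 difference was -0.0067 with median-of-ratios scaling. Leaving out 1 cDC2 library gave -0.18 to 0.055 for Gsdmd, -0.054 to 0.062 for Cd47 and -1.001 to 0.18 for Il18. The log2 ratio of Il1rn to agonists in T cells was -0.55, and -2.23 to 1.13 with 1 library left out. The cause of these changes was not tested. Median-of-ratios and quantile scaling moved the median of all genes by -0.15 in T cells and by -0.22 and -0.23 for the difference, and the calls for Il1r2 and Casp1 held under both. Depth is unknown, which limits genes under 1 TPM.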

Other observations

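Replicate 3 was the highest library of both genotypes in cDC2s for 7 of 12 tested genes that IL-1 and Toll-like receptors induce (Ccl4, Ier3, Nfkbia, Nfkbiz, Ptgs2, Tnf and Tnfaip3) and for Il1b, a pattern noticed after the values were seen. Over all 12058 genes tested in cDC2s this held for 16.8%. Ptgs2, the inducible prostaglandin synthase, had 5.25, 3.19 and 17.6 TPM in Cd47ΔT cDC2s, against 7.88, 9.89 and 27.6 TPM in Cd47f/f cDC2s. Tnf had 17.7, 20.1 and 25.0 TPM in Cd47ΔT cDC2s, against 24.1, 27.8 and 42.0 TPM in Cd47f/f cDC2s. The labels do not say that a replicate number marks a shared day or litter.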
